A study of Mus musculus with 6 samples.

Results

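The insulin-like growth factor (IGF) genes described here are the 2 ligands Igf1 and Igf2, the receptor Igf1r and the 7 binding proteins Igfbp1 to Igfbp7. They were taken by symbol from a kidney expression table, where they are 10 of 22183 genes, each with a single entry. Messenger RNA was profiled in kidney of mice given a plasmid carrying Wnt1, labelled as overexpressing that gene (3 libraries, called Wnt1), and of mice given the empty vector pcDNA3 (3 libraries, called control). All 6 libraries carry the same batch label; strain, sex, age, any injury and the interval since the plasmid was given are not among the labels. Whether libraries stand for separate animals is likewise not stated, and p-values then measure only the spread between these libraries, which may be technical.

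IGF1 and IGF2 are small secreted hormones that resemble insulin and signal through the tyrosine kinase receptor encoded by Igf1r, which feeds the PI3K/AKT and MAP kinase routes to growth and survival. In body fluids most of both ligands is held by IGF binding proteins, which lengthen their life in circulation, carry them to tissue and keep them from the receptor until proteases release them. IGFBP7 is a distant relative that binds IGFs weakly and is also known as a secreted product of stressed tubule cells. In the kidney the system is known for growth of the tubule, for glomerular blood flow and for compensatory growth after loss of tissue.

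Expected counts summed to 23585040 to 27218091 per Wnt1 library and 24753191 to 26072455 per control library. The Wnt1 transcript itself had 0, 1 and 0 reads in Wnt1 replicates 1, 2 and 3 and 0 in each control library, so its count is no check of the labels. On the first principal component, with 78% of the variance, there was a gap between all Wnt1 and all control libraries. The second (14.7%) set Wnt1 replicate 3 (score -50.1) and control replicate 3 (-29) apart from the other libraries (16.2 to 22.1). Levels between libraries are given as CPM, counts relative to library size after scaling by TMM, a factor that corrects for library make-up. Levels between genes are given as the authors' FPKM, which also divides by transcript length. The choice of scale shifts every gene: over all tested genes the median log2 fold change (Wnt1 over control) came to 0.05 by TMM and to 0.47 by plain library totals.

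The members split into a group of binding proteins that were lower in Wnt1 kidneys, 1 that was higher, and 1 abundant member, Igfbp7, that was not called. Igfbp1, Igfbp3, Igfbp4, Igfbp5 and Igf1r fell, and Igfbp6 rose, by the edgeR quasi-likelihood test with Benjamini-Hochberg adjustment over 14432 genes (called at an adjusted p under 0.05). Igf1, Igf2, Igfbp2 and Igfbp7 were not called. All 10 members passed the filter on low counts, so 1 of 10 was called higher and 5 of 10 lower, where the same test called 22.4% of all tested genes higher and 18.7% lower (41.1% in all). With library totals the split was 2 higher and 4 lower, where 6348 of all 14432 tested genes were called higher and 1288 lower. The CPM of the groups did not overlap for 6 of 10 members, the same 6 that were called, and for 53.5% of all tested genes. The median log2 fold change of the members was -0.38.

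**Figure D1:**
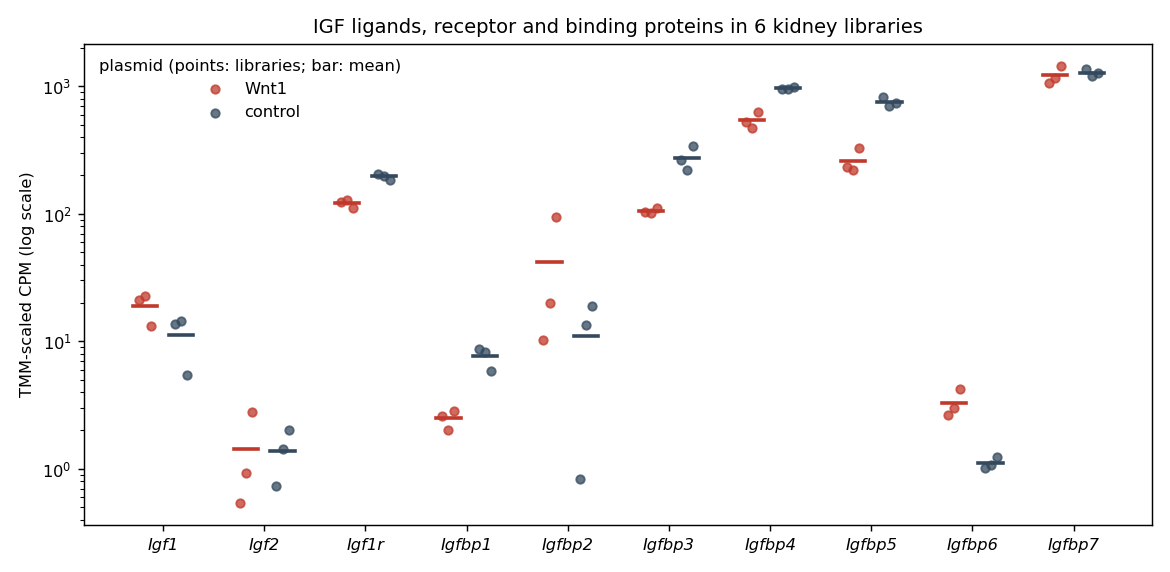
TMM-scaled CPM (log axis) of the 10 members, with Wnt1 libraries left of control libraries; points are libraries and bars are means of 3. Igfbp1, Igfbp3, Igfbp4, Igfbp5 and Igf1r sit lower in all Wnt1 libraries, Igfbp6 sits higher, and Igfbp2 spreads from 0.828 CPM in a control library to 94.8 CPM in a Wnt1 library.

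Per transcript length, Igfbp7 was the most abundant member and Igf2 the scarcest in both groups. In Wnt1 kidneys the order by mean FPKM was Igfbp7 (1265 ± 175; SD, n = 3, as for the FPKM means that follow), Igfbp4 (275 ± 38.7), Igfbp3 (50.8 ± 0.906), Igfbp5 (50.1 ± 9.81), Igfbp2 (36.2 ± 39.1), Igf1r (12.3 ± 1.29), Igf1 (8.82 ± 0.993), Igfbp6 (3.4 ± 0.750), Igfbp1 (1.88 ± 0.266) and Igf2 (0.526 ± 0.286). The ranges of Igfbp3 and Igfbp5, of Igfbp5 and Igfbp2, and of Igfbp2 and Igf1r overlapped there. In control kidneys it was Igfbp7 (992 ± 74.96), Igfbp4 (354 ± 4.68), Igfbp5 (109 ± 10.7), Igfbp3 (98.9 ± 20.7), Igf1r (14.9 ± 1.06), Igfbp2 (7.28 ± 5.92), Igfbp1 (4.34 ± 0.934), Igf1 (3.08 ± 1.08), Igfbp6 (0.856 ± 0.0745) and Igf2 (0.486 ± 0.0722). In controls the neighbours whose ranges overlapped were Igfbp5 and Igfbp3, Igfbp2 and Igfbp1, and Igfbp1 and Igf1. In both groups, the 7 binding proteins summed, mostly Igfbp7, exceeded the ligands by a wide margin. By mean FPKM, though, Igf1 lay above Igfbp6 in both groups and above Igfbp1 in Wnt1. The 7 together had 1482 to 1962 FPKM in Wnt1 libraries and 1489 to 1651 FPKM in control libraries. Igf1 and Igf2 together had 8.50 to 9.80 FPKM in Wnt1 libraries and 2.43 to 4.31 FPKM in control libraries. The ranges of the summed ligands do not overlap between the groups.

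Of the ligands, Igf1 is the main mediator of growth hormone, made mostly in liver and also locally by mesenchymal cells and macrophages. Igf1 (ENSMUSG00000020053; GRCm38 chromosome 10, 87858265 to 87937042, plus strand) had 21.1, 22.5 and 13.2 CPM in Wnt1 replicates 1, 2 and 3, against 13.6, 14.3 and 5.48 CPM in control replicates 1, 2 and 3. The groups overlap, since Wnt1 replicate 3 lay below control replicates 1 and 2. The log2 fold change on counts was 0.77 ± 0.37 (SE), with an edgeR adjusted p of 0.139. On the FPKM scale the groups did not overlap, at 9.28, 9.51 and 7.68 FPKM in Wnt1 against 3.88, 3.52 and 1.86 FPKM in control.

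Whether Igf1 was called depended on the scale and on the libraries used. Limma on log2(FPKM + 0.1) gave 1.55 (adjusted p = 0.00297), and edgeR gave 1.19 with library totals (adjusted p = 0.0411). Without both libraries numbered 3 edgeR gave 0.64 (adjusted p = 0.00125). The expected count, the FPKM and the library total together imply the mean length of transcript to which reads were assigned. For Igf1 it was 2634, 2829 and 1921 bases in Wnt1 replicates 1 to 3 against 3084, 3523 and 2500 bases in control replicates 1 to 3. These ranges overlap, with 1921 the shortest and 3523 the longest, and the 8 annotated Igf1 transcripts differ in length. For Igf1r, Igfbp1, Igfbp5, Igfbp6 and Igfbp7 the implied length was the same in all libraries, at 11409, 1525, 6006, 1112 and 1116 bases.

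**Figure D2:**
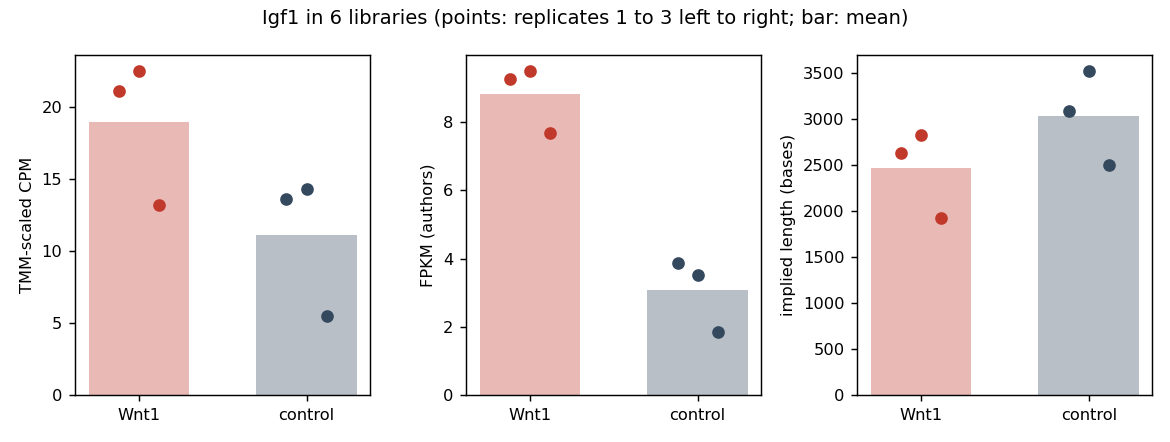
Igf1 in Wnt1 (left) and control (right) libraries as TMM-scaled CPM, as the authors' FPKM and as implied transcript length in bases; points are replicates 1 to 3 and bars are means. CPM overlap between the groups (13.2 in Wnt1 replicate 3 against 14.3 in control replicate 2), FPKM do not.

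Igf2, a fetal growth factor expressed from the paternal allele and mostly silent in adult mouse tissue, was near the limit of counting. Igf2 (ENSMUSG00000048583; chromosome 7, 142650766 to 142666816, minus strand) had 17, 26 and 74 rounded counts in Wnt1 replicates 1, 2 and 3, against 16, 32 and 44 counts in control replicates 1, 2 and 3. The groups overlap and the library numbered 3 is the highest of each. The log2 fold change was 0.02 ± 0.64 (edgeR adjusted p = 0.983), and it was -0.93 without Wnt1 replicate 3. The implied length of Igf2 ran from 1197 to 4523 bases over the libraries, so its FPKM rest on few reads and on how these were assigned. Igf2 also overlaps the antisense gene Igf2os and, on its own strand, the gene Gm49394, which had 0 counts in every library.

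As a measure free of library scaling, the log2 ratio of Igf2 to Igf1 FPKM averaged -4.23 ± 1.03 in Wnt1 and -2.61 ± 0.78 in control (SD, n = 3 each). The groups did not overlap, but Wnt1 replicate 3 (-3.24) lay close to control replicate 1 (-3.17), and the ratio rests on the few Igf2 reads. The exact permutation test, two-sided, gave p = 0.1, the smallest p that 3 against 3 libraries allow. With CPM in place of FPKM, a choice made after seeing the data, the difference was -1.05 (exact permutation p = 0.5) instead of -1.62.

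Igf1r, the receptor through which both ligands signal, fell in Wnt1 kidneys on the TMM scale. Igf1r (ENSMUSG00000005533; chromosome 7, 67952827 to 68233668, plus strand) had 124, 128 and 111 CPM in Wnt1 replicates, against 205, 198 and 185 CPM in control replicates. All Wnt1 libraries lay below all controls; the log2 fold change was -0.70 ± 0.12 (edgeR adjusted p = 0.0026), or 1.62-fold lower in Wnt1. The call depended on scaling: with library totals it was -0.27 (adjusted p = 0.0914), and limma on log2(FPKM + 1) gave -0.26 (adjusted p = 0.109).

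The deepest falls were those of Igfbp1, Igfbp5 and Igfbp3. Igfbp5, a heparin-binding IGFBP of mesenchymal, endothelial and tubule cells that also binds matrix, had 233, 221 and 330 CPM in Wnt1 replicates, against 831, 705 and 741 CPM in control replicates. Every Wnt1 library was below every control library; the log2 fold change was -1.54 ± 0.18 (edgeR adjusted p = 0.000437), or 2.91-fold lower in Wnt1. Igfbp5 (ENSMUSG00000026185) lies at chromosome 1, 72857932 to 72874884, on the minus strand.

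Igfbp3, the main carrier of IGF1 in serum and a known product of kidney endothelium, had 103, 102 and 111 CPM in Wnt1 replicates, against 264, 221 and 343 CPM in control replicates. The Wnt1 libraries were close to each other (SD 4.797 CPM) and the controls were spread (SD 61.8 CPM), with no overlap. The log2 fold change was -1.39 ± 0.17 (edgeR adjusted p = 0.000582), or 2.61-fold lower in Wnt1. Igfbp3 (ENSMUSG00000020427) lies at chromosome 11, 7206086 to 7213923, on the minus strand.

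Igfbp1, an acutely regulated IGFBP that insulin represses and fasting and hypoxia induce in liver, was scarce here. It had 2.60, 2.02 and 2.85 CPM in Wnt1 replicates (82, 57 and 75 counts), against 8.74, 8.29 and 5.89 CPM in control replicates (190, 187 and 129 counts). The groups did not overlap, and the log2 fold change was -1.62 ± 0.24 (edgeR adjusted p = 0.00125), or 3.07-fold lower in Wnt1. Igfbp1 (ENSMUSG00000020429) lies at chromosome 11, 7197782 to 7202546, on the plus strand.

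Igfbp4, an inhibitory binding protein that the protease PAPP-A cleaves to free its ligand, fell less and was far more abundant. It had 525, 468 and 627 CPM in Wnt1 replicates, against 948, 947 and 990 CPM in control replicates. The groups did not overlap, and the log2 fold change was -0.83 ± 0.14 (edgeR adjusted p = 0.00258), or 1.78-fold lower in Wnt1. Limma on log2(FPKM + 1) with no filter left it at -0.37 (adjusted p = 0.0529), while with library totals it stayed called at -0.42 (adjusted p = 0.0205). Igfbp4 (ENSMUSG00000017493) lies at chromosome 11, 99041244 to 99054392, on the plus strand.

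Igfbp6, a binding protein with a preference for IGF2, was the member that rose. It had 2.66, 2.97 and 4.21 CPM in Wnt1 replicates (84, 84 and 111 counts), against 1.01, 1.06 and 1.23 CPM in control replicates (22, 24 and 27 counts). All Wnt1 libraries were above all controls; the log2 fold change was 1.57 ± 0.28 (edgeR adjusted p = 0.00277), or 2.96-fold higher in Wnt1. Igfbp6 (ENSMUSG00000023046) lies at chromosome 15, 102144362 to 102149511, on the plus strand.

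The bases just before the starts of the 4 called members that changed by more than 1 on the log2 scale are shown, since these members moved in both directions. They come from RefSeq windows of GRCm38.p6, read 5′ to 3′ along the gene and kept only where they lie outside the annotated gene; all 10 members matched a window. Capitals mark matches to any of the motifs that are named after the sequences.
Igfbp1, chr11:7197537-7197781, plus strand: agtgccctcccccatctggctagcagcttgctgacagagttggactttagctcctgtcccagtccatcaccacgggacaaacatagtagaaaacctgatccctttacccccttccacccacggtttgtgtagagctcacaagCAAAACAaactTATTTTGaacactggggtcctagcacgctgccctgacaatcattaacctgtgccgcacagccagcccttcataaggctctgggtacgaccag
Igfbp3, chr11:7213924-7214173, minus strand: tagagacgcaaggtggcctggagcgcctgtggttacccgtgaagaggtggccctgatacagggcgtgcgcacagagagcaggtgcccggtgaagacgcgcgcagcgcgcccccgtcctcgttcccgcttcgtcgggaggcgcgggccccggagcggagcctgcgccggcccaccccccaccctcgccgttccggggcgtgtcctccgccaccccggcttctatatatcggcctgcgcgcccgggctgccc
Igfbp5, chr1:72874885-72875115, minus strand: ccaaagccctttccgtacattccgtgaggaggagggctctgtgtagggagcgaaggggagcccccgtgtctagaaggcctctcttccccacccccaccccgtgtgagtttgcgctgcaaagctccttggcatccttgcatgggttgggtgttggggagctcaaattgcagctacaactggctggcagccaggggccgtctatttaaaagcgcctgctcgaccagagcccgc
Igfbp6, chr15:102143936-102144185, plus strand: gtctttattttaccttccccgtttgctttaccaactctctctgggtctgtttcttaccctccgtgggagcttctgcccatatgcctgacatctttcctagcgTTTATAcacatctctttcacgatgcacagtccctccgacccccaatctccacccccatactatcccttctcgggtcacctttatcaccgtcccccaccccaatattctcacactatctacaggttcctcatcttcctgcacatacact

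Motifs were searched on both strands in the 250 bases before each RefSeq start. The Igfbp1 window held 2 insulin response motifs (the searched forms were TATTTTG and TGTTTTG). Counted from the RefSeq start, they lay at -108 to -102 as CAAAACA, the reverse complement of TGTTTTG, and at -97 to -91 as TATTTTG. Of 32851 windows of all genes, 9.14% held at least 1 such motif and 0.931% at least 2. Paired elements of this kind are known from Igfbp1 of several mammals, where FOXO factors bind them and insulin signalling removes those factors. No TCF/LEF motif (the searched forms were CTTTGAA, then the form CTTTGAT, then the form CTTTGTA, and last the form CTTTGTT), the kind bound by the partners of beta-catenin, was found in the windows of the 4 genes, and 14.84% of all windows held at least 1. Igfbp6 held 1 TATA box motif (TATAAA, found in 12.37% of all windows) on the opposite strand, at -148 to -143. Neither the AP-1 motif TGANTCA (6.75%) nor the cyclic AMP response element TGACGTCA (1.55%) was found in the 4. Among the other members, an Igf1 window held 2 TCF/LEF motifs, at -186 to -180 and -116 to -110, and 1 AP-1 motif at -37 to -31. That window lies inside the annotated span of Igf1 and is not printed. At least 2 TCF/LEF motifs were found in 1.428% of all windows, and the 10 members had 14 windows in all. Igfbp2 held 1 AP-1 motif at -39 to -33 in a window of another RefSeq start, and Igfbp4 held 1 TATA box motif at -28 to -23. None of these matches overlapped another, and a match describes letters only.

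The remaining binding proteins, Igfbp2 and Igfbp7, were not called. Igfbp2, a fetal and tumour-associated IGFBP that binds integrins, had 10.3, 20.0 and 94.8 CPM in Wnt1 replicates 1, 2 and 3, against 0.828, 13.5 and 18.8 CPM in control replicates 1, 2 and 3. Wnt1 replicate 3 stood far above and control replicate 1 far below the other libraries, which lay between 10.3 and 20.0 CPM. The log2 fold change was 1.92 ± 1.06 (edgeR adjusted p = 0.191), and it was 0.45 without Wnt1 replicate 3 (adjusted p = 0.688). Igfbp2 (ENSMUSG00000039323) lies at chromosome 1, 72824503 to 72852474, on the plus strand.

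Igfbp7 had 1057, 1169 and 1445 CPM in Wnt1 replicates, against 1369, 1208 and 1267 CPM in control replicates. The groups overlap, and the log2 fold change was -0.07 ± 0.15 (edgeR adjusted p = 0.764). Its direction depended on scaling: with library totals it was 0.35 (adjusted p = 0.0644), and the FPKM of the groups did not overlap (1097 to 1447 in Wnt1, 937 to 1078 in control). On both scales Igfbp7 lay below the median of all tested genes. Igfbp7 (ENSMUSG00000036256) lies at chromosome 5, 77349240 to 77408041, on the minus strand, and overlaps Polr2b on the opposite strand. The sources used here do not say whether counting used strand, so reads of overlapping genes may be mixed.

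**Figure D3:**
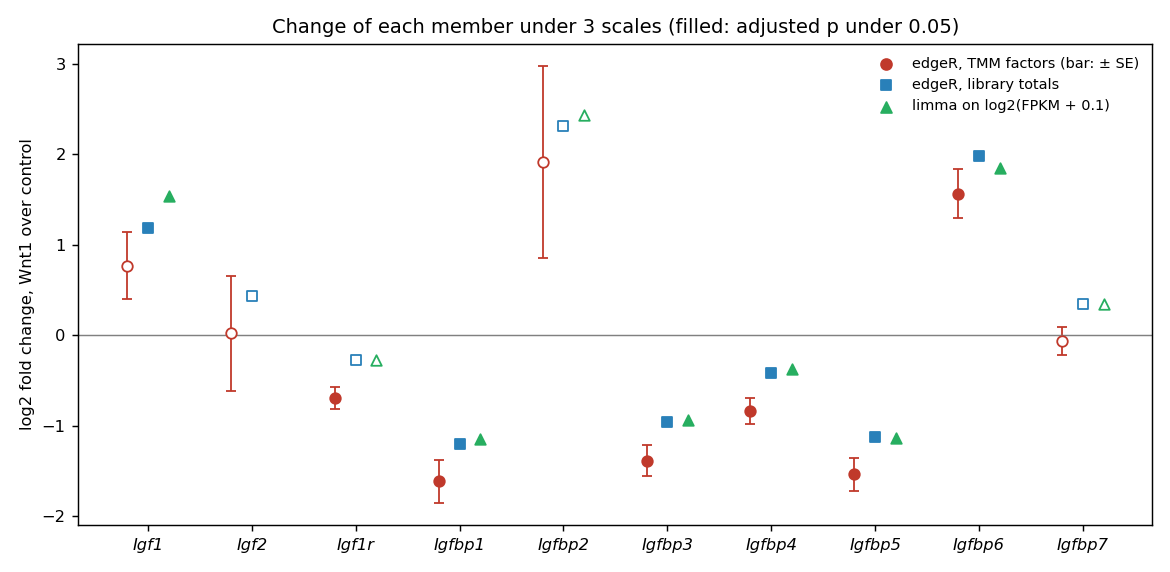
Log2 fold change (Wnt1 over control) of each member with TMM factors (± SE), with library totals, and by limma on log2(FPKM + 0.1), where Igf2 was not tested; filled symbols have an adjusted p under 0.05. Igfbp1, Igfbp3, Igfbp4 and Igfbp5 are lower and Igfbp6 higher under all 3, while Igf1 and Igf1r change their call.

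Igfbp1 with Igfbp3 and Igfbp2 with Igfbp5 are neighbours that face each other tail to tail, 3539 bases apart on chromosome 11 and 5457 bases apart on chromosome 1, with 0 annotated genes between them. Igfbp1 and Igfbp3 were lower together. Their log2 FPKM ratio (Igfbp3 over Igfbp1) was 4.66, 5.01 and 4.63 in Wnt1 replicates against 4.26, 4.08 and 5.20 in control replicates, with overlap and a difference of 0.25 (exact permutation test, two-sided, p = 0.5). It rested on single libraries, at 0.60 without control replicate 3, 0.04 without control replicate 2, 0.12 without control replicate 1 and 0.13 without Wnt1 replicate 2. Of the other pair, Igfbp5 fell and Igfbp2 was not called. The log2 FPKM ratio of Igfbp2 to Igfbp5 was -2.26, -1.26 and 0.40 in Wnt1 replicates against -7.43, -3.51 and -3.10 in control replicates. The groups did not overlap and differed by 3.64 (exact permutation test, two-sided, p = 0.1, the smallest possible here), or by 2.26 without control replicate 1.

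The make-up of the binding protein transcripts can be read within a library, so it is free of library scaling. Igfbp7 made up 73.8% to 77.9% of the summed FPKM of the 7 binding proteins in Wnt1 libraries, against 61.6% to 65.3% in control libraries. The groups did not overlap, and the difference was 11.98 percentage points (exact permutation test, two-sided, added after seeing the data, p = 0.1, the smallest possible). Igfbp4 held 14.7% to 18.6% in Wnt1 against 21.1% to 23.9% in control. Igfbp5 held 2.74% to 3.13% in Wnt1 against 6.70% to 7.36% in control, and Igfbp3 2.64% to 3.37% in Wnt1 against 5.35% to 7.73% in control. Thus none of the shares of Igfbp3, Igfbp4, Igfbp5 and Igfbp7 overlapped between the groups. These shares are parts of the same sum, so they depend on each other and are not separate results. Igfbp7 itself was not called on counts.

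The summed FPKM of all 7 did overlap, at 1482, 1604 and 1962 in Wnt1 replicates against 1651, 1489 and 1562 in control replicates (log2 difference 0.09; exact permutation test, two-sided, p = 0.7). This sum is mostly Igfbp7, and its direction turned without Wnt1 replicate 3 (-0.02) and after division by the TMM factors (-0.33). On the TMM-scaled CPM scale, which does not divide by length, the sums of the 7 did not overlap, at 1934 to 2615 CPM in Wnt1 and 3104 to 3422 CPM in control. Without Igfbp7, an added choice of the same kind, the sum was 354 to 515 FPKM in Wnt1 and 552 to 599 FPKM in control, with no overlap (log2 difference -0.48; exact permutation p = 0.1). After division by the TMM factors this difference was -0.90 (exact permutation p = 0.1).

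**Figure D4:**
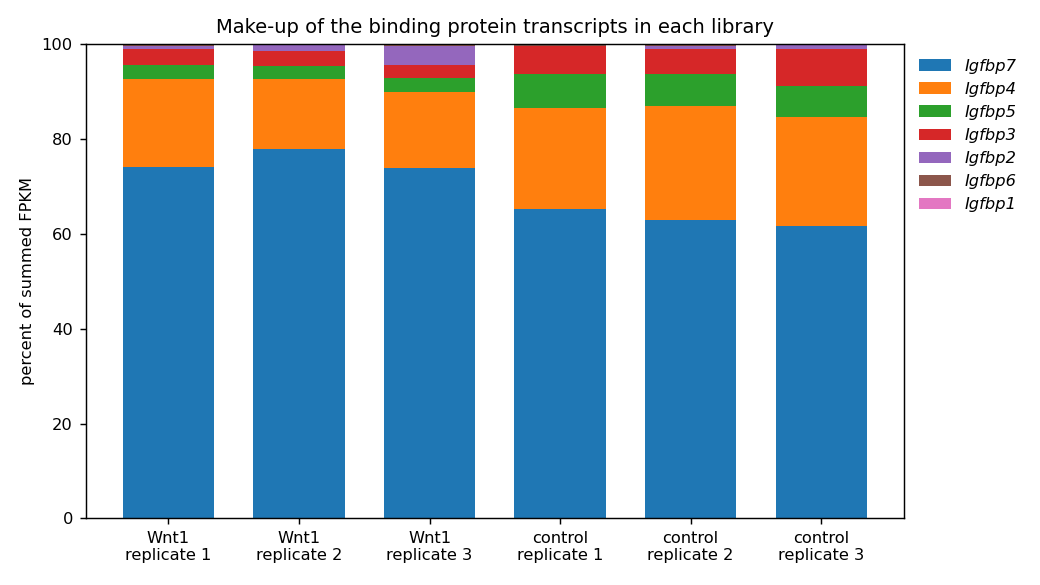
Share of each binding protein in the summed FPKM of the 7, in percent, for each Wnt1 (left) and control (right) library. The Igfbp7 share is 73.8% to 77.9% in Wnt1 libraries and 61.6% to 65.3% in control libraries, and the shares of Igfbp4, Igfbp5 and Igfbp3 are smaller in Wnt1.

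Cell markers moved in the same libraries, and in bulk tissue fewer cells of a type and less RNA per cell cannot be told apart. Markers of endothelial cells, a known source of Igfbp3 and Igfbp5, gave 0 higher and 6 lower of 10 tested (summed level 636 to 918 CPM in Wnt1, 995 to 1248 CPM in control; median log2 fold change -0.56). With library totals only Kdr, a VEGF receptor gene named after its value was seen, stayed called of these 10, lower in Wnt1 (list median -0.15). Podocyte markers gave 1 higher and 3 lower of 6 (516 to 613 CPM in Wnt1, 653 to 711 CPM in control; median -0.30), and 2 higher and 1 lower with library totals (median 0.11). Proximal tubule markers gave 0 higher and 9 lower of 10 (5020 to 6197 CPM in Wnt1, 21930 to 22917 CPM in control; median -1.72), and markers of the thick ascending limb and distal tubule 0 higher and 6 lower of 8 (2787 to 4464 CPM in Wnt1, 10479 to 11343 CPM in control; median -1.10). Collecting duct markers gave 0 higher and 3 lower of 8 (389 to 772 CPM in Wnt1, 810 to 909 CPM in control). With library totals, counts were 0 higher and 9 lower for the proximal tubule, 1 and 4 for the thick ascending limb and distal tubule, and 0 and 2 for the collecting duct.

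Markers of fibroblasts and macrophages, possible sources of Igf1 and Igfbp6, were higher. Mesenchymal cells were also named above for Igfbp5, which fell (log2 fold change -1.54 ± 0.18). Fibroblast and mural cell markers gave 9 higher and 0 lower of 10 (2170 to 3511 CPM in Wnt1, 566 to 728 CPM in control; median log2 fold change 1.74), and macrophage markers 10 higher and 0 lower of 10 (1798 to 2186 CPM in Wnt1, 227 to 273 CPM in control; median 2.99). Tubular injury markers gave 8 higher and 0 lower of 8 (14035 to 21856 CPM in Wnt1, 1427 to 1746 CPM in control; median 4.20). Liver markers, for the main organ of Igf1 and Igfbp1, gave 1 higher and 3 lower of 6 tested (140 to 247 CPM in Wnt1, 194 to 231 CPM in control, over all 8 listed). No listed marker was at 0 in all libraries. The part of these cells in the changes of the IGF genes was not tested.

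Around the members, 48 other genes of the pathway were listed by role, of which 45 were tested, 11 called higher and 15 lower (median log2 fold change -0.14, against 0.05 over all tested genes). With library totals the split was 15 higher and 5 lower. Over all 14432 tested genes, 3239 were called higher and 2697 lower by TMM, and 6348 higher and 1288 lower by library totals. Of 7 tested genes for the ternary complex, the proteases and their inhibitors, 4 were higher and 1 lower, with a median of 0.99. Adam12, a metalloprotease that cleaves IGFBP3 and IGFBP5, had 38.9, 54.3 and 47.5 CPM in Wnt1 replicates against 8.64, 6.38 and 6.89 CPM in control replicates (2.68 ± 0.19; edgeR adjusted p = 6.19e-05). Pappa2, a protease of IGFBP3 and IGFBP5, had 3.20, 2.30 and 1.97 CPM in Wnt1 replicates against 0.736, 1.02 and 0.548 CPM in control replicates (1.69 ± 0.34; adjusted p = 0.00481). For both, all Wnt1 libraries lay above all controls.

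Pappa, whose product cleaves IGFBP4, rose by 0.99 ± 0.24 on the log2 scale (edgeR adjusted p = 0.0131; 12.01 ± 3.23 CPM in Wnt1, 6.04 ± 0.918 CPM in control; adjusted p up to 0.0576 over the alternatives). Stc2, a stanniocalcin that inhibits PAPP-A, rose by 2.05 ± 0.19 (adjusted p = 0.000148), to 16.6 ± 2.92 CPM in Wnt1 against 3.99 ± 0.210 CPM in control. Igfals, the acid-labile subunit that holds IGFs and IGFBP3 in the serum ternary complex, fell (-0.89 ± 0.19; adjusted p = 0.00741), though not with library totals (adjusted p = 0.0647). Messenger RNA of protease genes and a protease inhibitor rose in the same kidneys in which that of Igfbp3, Igfbp4 and Igfbp5 fell. Of the 7 tested genes for the ternary complex, the proteases and their inhibitors, 2 were not called. A link between these changes was not tested, and cleavage of the proteins was not measured.

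Among receptors and adaptors 3 of 9 tested genes were higher and 4 lower (22.4% and 18.7% over all tested genes). Of the 4 lower, only Insrr stayed called with library totals (log2 fold change -1.33, edgeR adjusted p = 0.00131). Insrr, an insulin receptor-related kinase that senses alkaline fluid in the collecting duct, was the deepest, at 13.3, 8.67 and 15.3 CPM in Wnt1 replicates against 38.9, 39.3 and 46.5 CPM in control replicates (-1.75 ± 0.22; edgeR adjusted p = 0.000565). Igf2r, the clearance receptor of IGF2 and carrier of lysosomal enzymes, fell by 0.54 ± 0.12 on the log2 scale (adjusted p = 0.00919), but by 0.12 with library totals (adjusted p = 0.345). Insr, the insulin receptor, was not called (-0.37 ± 0.18; adjusted p = 0.134). The rises were those of the adaptors Sh2b2 (2.21 ± 0.33; adjusted p = 0.00126), Grb10 (0.65 ± 0.12; 0.00297) and Shc1 (0.61 ± 0.16; 0.0163). Grb10 is known as a brake on the insulin and IGF1 receptors. The insulin receptor substrates were lower, Irs1 by -0.63 ± 0.16 (adjusted p = 0.0159) and Irs2 by -1.21 ± 0.31 (0.0156), and neither was called with library totals (0.293 and 0.0697).

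The growth hormone axis, which drives Igf1 in liver, gave 0 higher and 3 lower of 7 tested genes (22.4% and 18.7% over all tested genes). Ghr, the growth hormone receptor, had 229, 221 and 117 CPM in Wnt1 replicates against 629, 733 and 411 CPM in control replicates (-1.65 ± 0.31; edgeR adjusted p = 0.00422). It was lowest in the library numbered 3 of each group, as Igf1 was, and so were 3994 of all 14432 tested genes. The Ghr groups did not overlap. Cish, a target of STAT5, fell (-1.18 ± 0.27; adjusted p = 0.0102; called in 13 of 16 alternatives, with adjusted p up to 0.0789), and Stat5b fell on the TMM scale (-0.57 ± 0.14; adjusted p = 0.0128) but not with library totals (adjusted p = 0.305). Socs2, another STAT5 target, was not called (0.46 ± 0.34; adjusted p = 0.315).

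Downstream signalling genes were mixed, with 3 higher and 6 lower of 20 tested (22.4% and 18.7% over all tested genes). Of the 6 lower, only Mtor stayed called with library totals (log2 fold change -1.21, edgeR adjusted p = 0.000291). Mtor, the kinase of mTORC1, fell by 1.63 ± 0.15 on the log2 scale (edgeR adjusted p = 0.000168), to 126 ± 18.8 CPM in Wnt1 against 391 ± 41.4 CPM in control. Eif4ebp1, a translation repressor that mTORC1 inactivates, rose by 1.17 ± 0.17 (adjusted p = 0.000996), to 32.9 ± 3.42 CPM in Wnt1 against 14.6 ± 2.37 CPM in control. Foxo1, whose product binds insulin response elements, fell by 0.72 ± 0.12 (adjusted p = 0.00211), and by 0.30 with library totals (adjusted p = 0.0616). Of the IGF2 mRNA-binding proteins, Igf2bp2 rose (1.13 ± 0.18; adjusted p = 0.00193) and Igf2bp1 fell (-1.28 ± 0.22; adjusted p = 0.00238), while Igf2bp3 did not pass the filter.

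**Figure D5:**
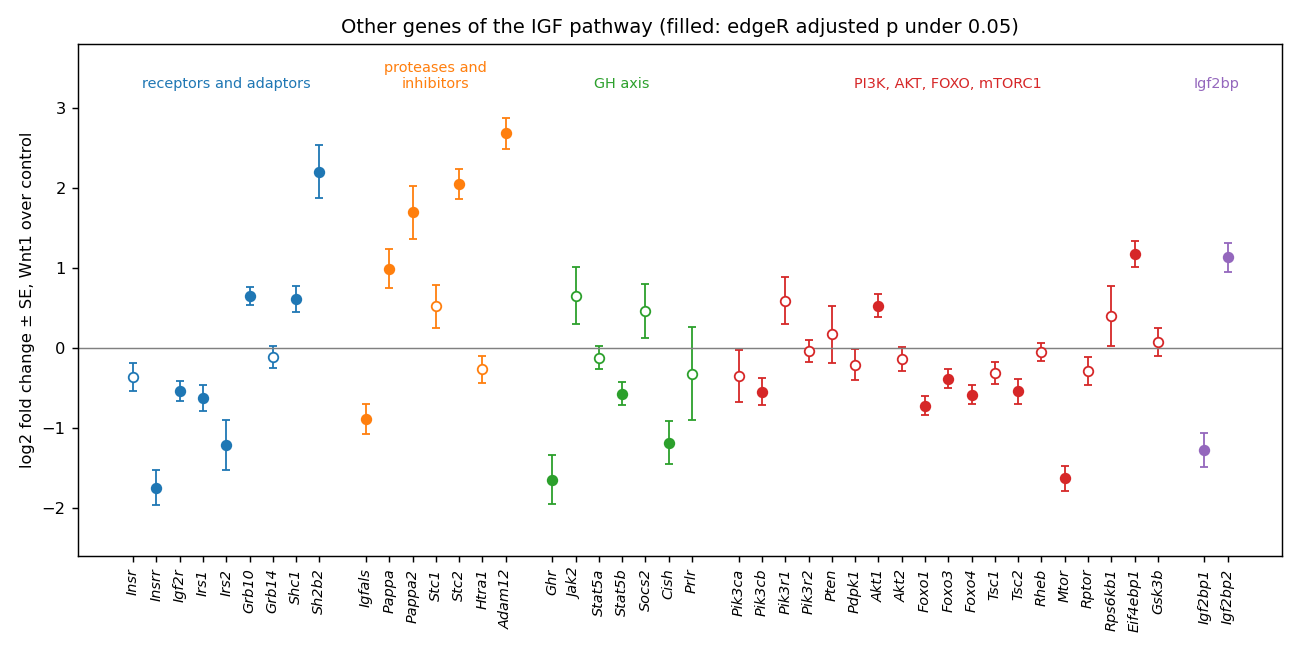
Log2 fold change (Wnt1 over control, ± SE) of the tested pathway genes reported here, other than the members, grouped by role; filled points have an edgeR adjusted p under 0.05. Adam12, Stc2, Pappa2 and Pappa rise in the protease group, and Insrr, Ghr, Mtor, Igf2bp1, Irs2 and Cish fall by more than 1.

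The genes most alike in pattern were found by the root mean square difference of mean-centred log2 CPM over the 6 libraries, among 14072 named genes. The closest to Igf1r was Rnf11 (0.0404), to Igfbp5 Asl (0.0524), to Igfbp3 Cyp27a1 (0.0911), to Igfbp1 Ell3 (0.0750) and to Igfbp6 Cacnb3 (0.0544). Igfbp4 (closest gene Oxnad1, 0.0196) and Igfbp7 (Fiz1, 0.0230) had nearer companions, and Igf1 (Lepr, 0.123) and Igf2 (Fer1l4, 0.209) farther ones. Igfbp2 had no close companion. Its nearest were the red cell genes Hbb-bs (0.716), Alas2 (0.724) and Hbb-bt (0.760), which encode haemoglobin chains and the erythroid enzyme of haem synthesis.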

How the data were processed

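Polyadenylated kidney RNA was captured with oligo(dT) and made into libraries with the NEBNext Ultra kit, per the labels' protocols. The build was mm10 and the tools were RSEM, HISAT2, StringTie 1.3.1, Bowtie2 2.2.8 and fastp 0.18.0, per the submitters' processing notes; the sources used here give neither their roles nor the annotation release or strandedness. For each gene and library the authors deposited an expected count and an FPKM value. Expected counts were rounded before testing, as 9.02% were not whole (tolerance 1e-06). Gene positions come from GENCODE M21 (GRCm38, the assembly mm10 names); 22128 of 22183 identifiers matched.

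Rounded counts were tested with edgeR 4.0.16 under R 4.3.3 (filterByExpr, TMM, robust quasi-likelihood test, two-sided, Benjamini-Hochberg over all tested genes). SEs derive from the coefficient and the F statistic, so they add nothing to the p. Depth was 23585040 to 27218091 counts per library. Few counts limit Igf2, Igfbp1 and Igfbp6. Alternatives were DESeq2 1.42.0, limma 3.58.1 on log2(FPKM + 1) and log2(FPKM + 0.1) with a minimum of 1 FPKM in 3 libraries or unfiltered, other scalings and filters, and left-out libraries. Ratios and sums used exact permutation tests over libraries. Members, gene lists and alternatives were chosen with earlier results of these data known. Named genes were all members and, per pathway list, up to 4 called genes with the smallest p; Insr, Irs1, Irs2, Shc1, Pappa and Socs2 are named outside that rule, after their values were seen, and 1 gene that the rule allowed is not reported here. Replicate numbers follow the order of the records and pair nothing.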

Additional observations from a re-analysis of the deposited data

How the results depend on the processing

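Igfbp1, Igfbp3, Igfbp5 and Igfbp6 kept their direction and call under all 16 alternatives. With single libraries or both libraries numbered 3 left out, the log2 fold changes of the 6 called members were 0.802 to 1.16 times those with all libraries (highest adjusted p 0.0277). Members called higher numbered 2 (Igf1 joining Igfbp6) with library totals, with limma on log2(FPKM + 1), on log2(FPKM + 0.1) and unfiltered, and without both libraries numbered 3, against 1; members called lower numbered 3 with unfiltered limma, against 5. All called genes numbered 9096 without both libraries numbered 3, against 5936, and 4518 to 8142 with single libraries left out. Other pathway genes called higher numbered 17 with unfiltered limma, against 11. Those called lower numbered 5 with library totals, 3 with limma on log2(FPKM + 1) and on log2(FPKM + 0.1) and 4 unfiltered, against 15, on scales that raise the median of all genes. The summed binding protein difference was -0.33 after division by TMM factors and ran from -0.023 to 0.18 with single libraries left out. For Igf2 the direction turned with DESeq2 (-0.018) and median-ratio factors (-0.024), without both libraries numbered 3 (-0.58), and with single libraries left out (-0.93 to 0.44). For Igfbp7 it turned with library totals (0.35), limma on log2(FPKM + 0.1) (0.34), on log2(FPKM + 1) (0.34) and unfiltered (0.34), upper-quartile factors (0.035), and with single libraries left out (-0.21 to 0.034); the cause was not tested. No paired analysis was possible because replicate numbers were given in the order of the records. Single left-out libraries kept 1 member called higher and 5 lower. The added alternatives (CPM in ratios, left-out libraries for the Igfbp7 share, scaling of the sum without Igfbp7) were chosen after seeing the data.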

Other observations

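The libraries numbered 3, which stand apart on the second principal component, were the extreme of their group for most members. Wnt1 replicate 3 and control replicate 3 were the highest of their groups for 5 of 10 members (Igf2, Igfbp2, Igfbp3, Igfbp4 and Igfbp6) and the lowest for 2 (Igf1 and Igf1r), 70.0% in all. The same held for 62.1% of all tested genes, so it is no feature of the members alone. Igfbp1 was highest in Wnt1 replicate 3 and lowest in control replicate 3 of their groups.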
